A study of Saccharomyces cerevisiae with 30 samples.

Results

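The genes described here are 37 genes of the budding yeast Saccharomyces cerevisiae that encode subunits of RNA polymerase I (Pol I) and RNA polymerase III (Pol III), the factors that place these enzymes on their promoters, and the Pol III repressor Maf1. The rule goes by gene symbol and uses no measured value. All 37 symbols were found once among the 7127 features of the deposited count table, and all 37 were among the 6256 genes left by the filter on low counts. Of these, 20 encode core subunits, which build the enzymes themselves: 7 belong to Pol I only, 10 to Pol III only and 3 to both. Another 16 encode initiation factors, 8 for each polymerase, and MAF1 makes the total.

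Pol I transcribes the long precursor of the large ribosomal RNAs, and Pol III makes transfer RNAs, the 5S ribosomal RNA and other short RNAs. On the Pol I promoter the upstream activating factor (UAF) and the core factor recruit a polymerase that carries Rrn3, while on Pol III genes the assembly factor TFIIIC places TFIIIB, which in turn holds the polymerase. Because a ribosome needs the products of both enzymes, their subunit genes are known in yeast as part of a large growth-linked programme, many of whose promoters carry the PAC element (named for polymerases A and C, older names of Pol I and Pol III) and the ribosomal RNA processing element (RRPE).

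RNA was sequenced from chemostat yeast (strain background CEN.PK122-alpha) that had been starved and then fed low glucose slowly, a regime in which cultures pass through the yeast metabolic cycle, a repeated swing of oxygen use and gene expression. A wild-type strain (WT, genotype wt) was set beside a strain with the yaf9W89A allele (W89A), which puts alanine for a tryptophan of Yaf9, a subunit of the NuA4 acetyltransferase and the SWR1 remodeller whose YEATS domain binds acylated histone tails. Each strain was sampled at 5 numbered time points of 3 consecutive cycles, which gives 30 libraries in 10 groups of 3, and clock times or oxygen readings of the time points were not used here. Background, feed and sampling scheme were common to both strains. No separate cultures were stated, so p-values measure the spread between cycles and the allele cannot be told apart from its culture. Gene counts do not show a point substitution, so the genotype was not checked.

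Library totals ran from 16540627 to 20260295 counts. For cycle 1 of W89A the titles and the authors' comparison tables assign time points 4 and 5 to opposite libraries, and the assignment in those tables was used; the other is called the title order. In a comparison of each library with the mean of the other WT libraries of every time point, across the 6256 genes, 3 libraries were taken, after their values were seen, to stand apart from the rest of their group. The WT library of time point 1, cycle 1, was closest to WT time point 2 (r = 0.843, against 0.759 for its own). All 3 W89A libraries of time point 3 were closest to WT time point 2, but that of cycle 3 far more so (r = 0.715) than those of cycles 1 and 2 (0.193 and 0.262). The W89A library of time point 4, cycle 3, was closest to WT time point 3 (r = 0.635, against 0.604 for its own). The libraries of time point 2, cycle 3, of both strains were closest to WT time point 1 (0.835 against 0.832 in WT, 0.774 against 0.735 in W89A) and were kept. By these margins alone that W89A library is not set apart from the one of time point 4, cycle 3. Of the W89A libraries of cycle 1 with opposite assignments, the one used as time point 4 was closest to WT time point 4 (r = 0.746, against 0.493 for time point 5). The one used as time point 5 was closest to WT time point 5 (r = 0.596, against 0.302 for time point 4). The main strain comparisons are given with and without the 3 libraries that stood apart.

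Values per library are CPM (counts per 1e6 of the library size after TMM scaling), listed for cycles 1, 2 and 3 in that order. Fold changes are log2 values from a single edgeR quasi-likelihood fit of all 30 libraries, with their standard error (SE), and a gene was called where its p-value, adjusted by Benjamini-Hochberg over all 6256 genes, was below 0.05. The range of a gene is the difference between its highest and lowest fitted log2 level over the 5 time points.

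In the WT cycle the core subunit genes swung together, with a peak at time point 2 and a low at time point 4, while most initiation factor genes moved far less. In a bulk culture, fewer cells that express a gene and less RNA per cell cannot be told apart. A change over the WT cycle was called for 34 of the 37 genes, beside 81.5% of all genes tested, so that share alone sets them little apart. The size of the swing differed more: the median range was 2.88 for the 20 core genes and 0.71 for the 16 factors, beside 1.05 for all genes. At time point 2 lay the WT peak of 19 of 20 core genes and of 7 of 16 factors, beside 29.6% of all genes, and all 20 core genes were lowest at time point 4, beside 32.5% of all. The exceptions without a call were RRN10 (adjusted p = 0.161), TFC6 (0.616) and BRF1 (0.214), all of them factors.

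**Figure D1:**
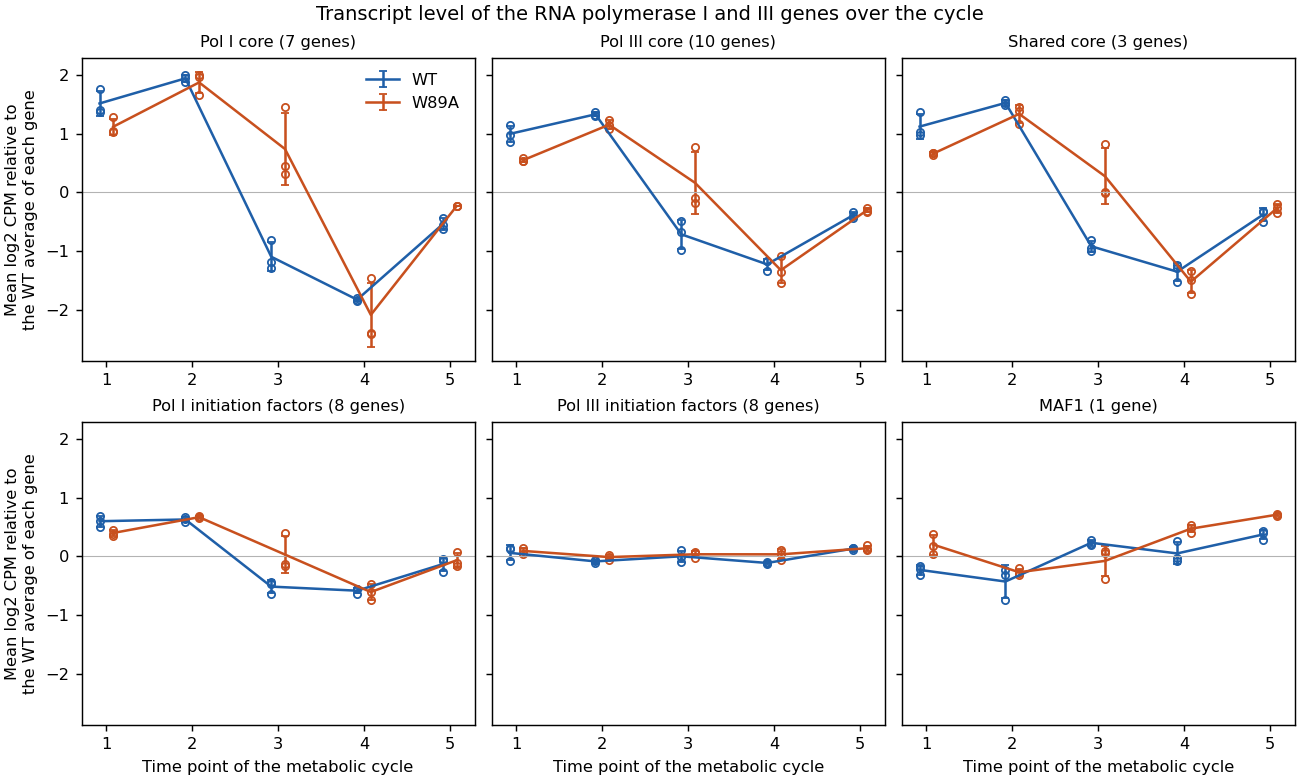
Mean log2 CPM of each gene class in every library, relative to the WT average of each gene, against the time point. Open circles are libraries, lines join the means of 3 libraries and bars are their SD. The mean of the Pol I core stands at -1.10 in WT and 0.74 in W89A at time point 3, while the means of the Pol III factors stay between -0.11 and 0.14 in both strains.

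Among the Pol I core genes, RPA190 (chrXV:960987-965981, plus strand) and RPA135 (chrXVI:577585-581196, minus strand) encode the largest pair of subunits, which form the active centre. RPA190 in WT stood at 598, 445 and 452 CPM at time point 1, 713, 779 and 673 at time point 2, 64.6, 105 and 62.5 at time point 3, 40.98, 48.9 and 46.9 at time point 4 and 118, 87.6 and 108 at time point 5. RPA135 in WT stood at 947, 668 and 690.4 CPM at time point 1, 990.1, 1055 and 975 at time point 2, 77.1, 117 and 85.1 at time point 3, 55.6, 57.8 and 47.9 at time point 4 and 150.5, 132 and 138 at time point 5. Both genes were thus high in every library of time points 1 and 2 and low in every library of time points 3 to 5, with no overlap between those 2 sets. From time point 2 to time point 3 RPA190 fell by 3.22 ± 0.28 and RPA135 fell by 3.44 ± 0.30 on the log2 scale (SE; adjusted p = 5.44e-10 and 6.95e-10). RPA49, which with RPA34 encodes a dimer related to the Pol II factor TFIIF, had the widest range of all 37 genes, 4.37, and RPA34 had 3.87. RPA43, of the stalk that meets Rrn3, had 4.09 and RPA12, needed for cleavage of the transcript, had 3.91. The other stalk gene, RPA14, was the exception with 1.94; it overlaps YDR157W on the other strand, and as the strand used in counting is not given in the sources used here, reads of the pair cannot be told apart.

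The 10 Pol III core genes had the same peak and low with a smaller swing, a median range of 2.52 beside 3.98 for the 7 Pol I core genes. RPO31 (chrXV:539763-544145, minus strand) and RET1 (chrXV:730008-733457, minus strand) encode the largest pair of Pol III subunits. RPO31 in WT stood at 199.7, 183 and 175 CPM at time point 1, 196, 241 and 244 at time point 2, 71.3, 77.8 and 76.00 at time point 3, 55.3, 62.7 and 56.9 at time point 4 and 73.2, 87.2 and 91.9 at time point 5. RET1 in WT stood at 191, 145 and 163 CPM at time point 1, 227, 229.7 and 198 at time point 2, 45.6, 65.1 and 58.9 at time point 3, 43.2, 38.8 and 46.3 at time point 4 and 56.8, 71.3 and 63.5 at time point 5. Every library of time points 1 and 2 was again above every library of time points 3 to 5 for both genes. Ranges of the class ran from 1.96 (RPO31) to 3.35 (RPC53, of a TFIIF-like dimer with RPC37). In between lay RPC82 (3.12), RPC31 (2.29) and RPC34 (2.17), whose products form a trimer needed at initiation, the stalk genes RPC17 (2.69) and RPC25 (2.30), and RPC11 (2.73), needed for cleavage and termination. RPC37 was the single core gene with its WT peak at time point 1, but its means at time points 1 and 2, 94.04 ± 6.29 and 90.6 ± 10.9 CPM (SD, n = 3), differed by less than their spread.

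Many Pol I subunits have a Pol III counterpart in the same place of the enzyme, which allows 7 pairs to be set side by side. In 6 of the 7 the WT range was larger for the Pol I gene, by 0.52 (RPA34 over RPC53) to 2.02 (RPA190 over RPO31). The stalk pair was the exception, with RPC17 above RPA14 by 0.75, and RPA14 is the gene whose reads cannot be told apart from YDR157W. Of the subunits that both enzymes share, RPC40 and RPC19, which form the assembly platform of Pol I and Pol III, had ranges of 3.02 and 3.44, between the medians of both classes, and RPC10, a small subunit that Pol II also contains, had 2.16, below both.

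Factors for Pol I fell into a swinging and a flat group. RRN11, a core factor gene (chrXIII:190244-191767, minus strand), had a range of 3.97, as wide as that of RPA190, but at low level: it stood at 56.5, 48.7 and 54.2 CPM at time point 1, 38.7, 36.2 and 46.2 at time point 2, 2.73, 4.21 and 4.51 at time point 3, 4.47, 2.703 and 2.99 at time point 4 and 4.61, 10.2 and 8.74 at time point 5. Its other core factor partners RRN7 and RRN6 had ranges of 2.26 and 1.43. RRN3 (chrXI:208247-210130, plus strand), whose product makes Pol I competent to start, had a range of 1.83 and stood at 62.9, 49.6 and 52.1 CPM at time point 1, 83.6, 90.5 and 68.7 at time point 2, 18.99, 27.8 and 21.4 at time point 3, 33.1, 25.1 and 35.5 at time point 4 and 49.1, 49.9 and 51.5 at time point 5. Its libraries of time point 2 were above all others and its mean at time point 3 was the lowest. The 4 UAF genes moved little: UAF30 (0.77), RRN9 (0.77) and RRN5 (0.76) were called over the WT cycle and RRN10 (0.36) was not. RRN5 ran the other way from the core genes, with its WT peak at time point 5 and its low at time point 2.

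All 8 Pol III factor genes had a WT range under 1. BRF1 (chrVII:982482-984272, minus strand), the TFIIIB subunit that holds TBP, stood at 41.7, 51.9 and 56.4 CPM at time point 1, 48.4, 49.5 and 43.1 at time point 2, 38.1, 50.6 and 46.8 at time point 3, 40.5, 45.2 and 43.7 at time point 4 and 55.4, 55.4 and 47.8 at time point 5, and its libraries overlapped between all time points except 4 and 5. The TFIIIB gene BDP1 had a range of 0.66 with its peak at time point 2. Of the 6 TFIIIC genes, 5 were called over the WT cycle, and TFC3, TFC8, TFC1 and TFC4 had their low at time point 2, when the core genes were at their highest. TFC4, which carries the arm that recruits TFIIIB, had the widest range of the class (0.80).

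MAF1 (chrIV:456836-458103, minus strand) encodes the repressor that binds Pol III when nutrients run short or under stress. Its WT libraries held 67.1, 75.3 and 72.4 CPM at time point 1, 49.98, 67.6 and 71.5 at time point 2, 102, 97.02 and 96.3 at time point 3, 82.4, 101 and 79.02 at time point 4 and 102, 114 and 111 at time point 5. MAF1 was therefore lowest where the core genes peaked, and its libraries of time point 5 were above those of time points 1 and 2. The change over the cycle was called (range 0.79, adjusted p = 9.02e-06), and from time point 2 to time point 3 MAF1 rose by 0.64 ± 0.12 on the log2 scale (adjusted p = 5.97e-05).

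**Figure D2:**
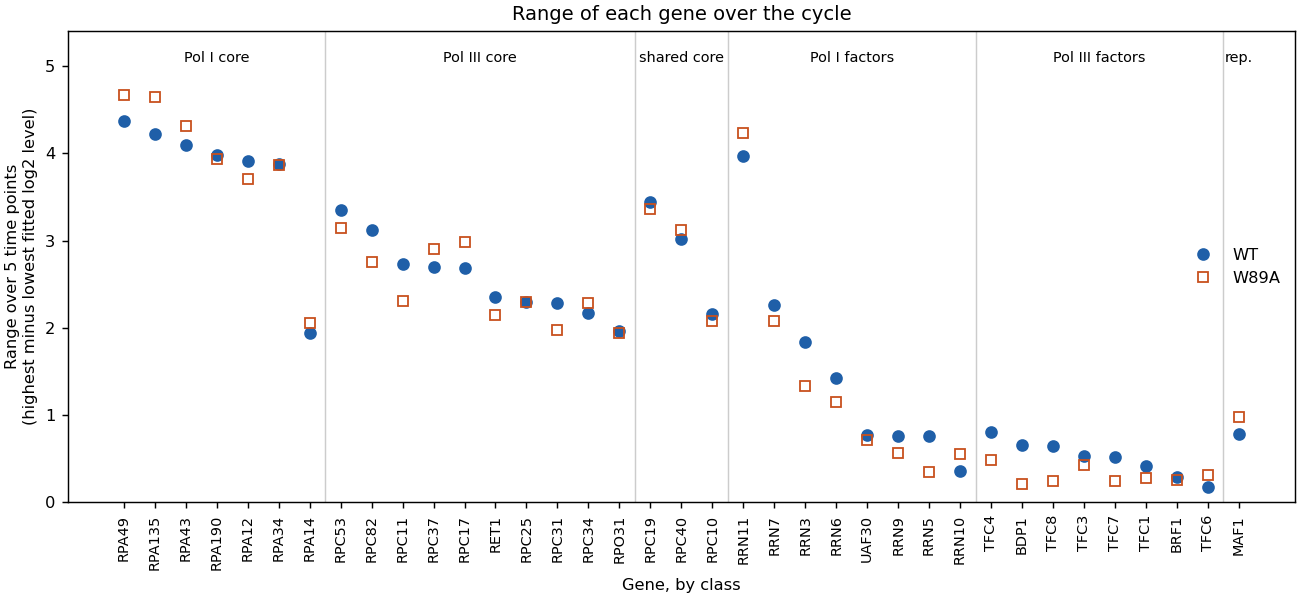
Range of each of the 37 genes over the 5 time points, as the highest minus the lowest fitted log2 level, in WT (filled circles) and W89A (open squares), ordered within each class by the WT value. Core genes lie between 1.94 and 4.37 in WT, and the 8 Pol III factors between 0.17 and 0.80.

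Levels between genes can be compared only per length of the gene. As the mean of the 15 WT libraries, in CPM per kilobase, the core genes stood at 19.99 (RPC53) to 455 (RPC10) and the factors at 8.68 (TFC4) to 52.4 (RRN10). Class medians were 114 for the Pol I core, 154 for the shared core, 45.4 for the Pol III core, 25.6 for the Pol I factors and 19.97 for the Pol III factors, with MAF1 at 72.3. These are means over a cycle in which a core gene such as RPA135 ranged from 53.8 ± 5.201 to 1007 ± 42.4 CPM (SD, n = 3), so neighbours in the order are not set apart by them.

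Promoters were searched because most of the core genes move together. The window was the 300 bases before the start codon, read from RefSeq R64, whose coordinates equalled those of the deposited table for all 37 genes. The motifs were PAC (GCGATGAG), the PAC core (GATGAG, which lies within PAC) and the RRPE core (AAAATTTT), each on both strands. The PAC core was in the window of 16 of 20 core genes (80.0%) and 6 of 16 factors (37.5%), beside 19.1% of all 6001 protein-coding genes. By class it was found for 6 of 7 Pol I core genes, 8 of 10 Pol III core genes, 5 of 8 Pol I factors, 1 of 8 Pol III factors (TFC6) and not for MAF1. The RRPE core was in the window of 12 of 20 core genes (60.0%) and 3 of 16 factors (18.8%), beside 9.42% of all. RPA12, RPC11, RPC17 and RPC10 were the core genes whose window does not hold the PAC core. Median WT ranges were 2.52 for the 22 genes with the PAC core and 0.77 for the 15 without, but among core genes alone they were 3.07 (16 genes) and 2.71 (4 genes). A match is a run of letters and not a measured binding site. Matches and ranges also parted in single genes. RPA12 (range 3.91) held neither core motif, while RRN10 (0.36) held both and TFC6 (0.17) held the PAC core. The windows of 8 genes run from base -230 to base -76 before the start codon, written 5′ to 3′ along the gene's strand. They show where the letters lie in genes that hold them, and BRF1, whose level was nearly flat, which does not. These are examples and not a sample of the set. Capitals mark the PAC and RRPE letters on either strand.
RPA190, chrXV:960757-960911, plus strand: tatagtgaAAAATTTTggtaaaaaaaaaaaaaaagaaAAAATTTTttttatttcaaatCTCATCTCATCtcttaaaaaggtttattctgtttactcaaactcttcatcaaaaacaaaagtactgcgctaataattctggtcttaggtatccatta
RPA43, chrXV:960258-960412, minus strand: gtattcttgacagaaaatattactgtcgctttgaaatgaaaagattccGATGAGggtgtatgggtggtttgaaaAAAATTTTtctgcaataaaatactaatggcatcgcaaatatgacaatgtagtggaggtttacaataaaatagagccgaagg
RPA135, chrXVI:581272-581426, minus strand: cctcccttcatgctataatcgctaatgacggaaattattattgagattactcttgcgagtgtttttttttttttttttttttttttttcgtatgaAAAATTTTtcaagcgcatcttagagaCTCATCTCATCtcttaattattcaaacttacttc
RPA49, chrXIV:182684-182838, minus strand: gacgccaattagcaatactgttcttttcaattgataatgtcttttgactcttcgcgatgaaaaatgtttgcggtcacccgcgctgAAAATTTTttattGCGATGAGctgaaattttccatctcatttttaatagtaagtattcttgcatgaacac
RPC40, chrXVI:746911-747065, minus strand: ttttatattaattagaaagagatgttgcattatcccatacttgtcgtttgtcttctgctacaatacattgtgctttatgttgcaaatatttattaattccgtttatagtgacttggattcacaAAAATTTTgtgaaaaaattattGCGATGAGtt
RET1, chrXV:733533-733687, minus strand: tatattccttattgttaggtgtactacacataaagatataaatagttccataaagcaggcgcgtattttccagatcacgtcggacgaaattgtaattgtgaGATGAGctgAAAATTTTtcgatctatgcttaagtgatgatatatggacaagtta
RRN11, chrXIII:191843-191997, minus strand: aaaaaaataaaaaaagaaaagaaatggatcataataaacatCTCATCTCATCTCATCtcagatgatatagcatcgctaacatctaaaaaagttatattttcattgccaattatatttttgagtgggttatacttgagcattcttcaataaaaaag
BRF1, chrVII:984348-984502, minus strand: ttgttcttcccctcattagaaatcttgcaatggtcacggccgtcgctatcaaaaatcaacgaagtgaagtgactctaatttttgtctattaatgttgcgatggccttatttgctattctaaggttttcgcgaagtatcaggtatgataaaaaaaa

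In RPA190 and RPA135 the PAC core lies on the opposite strand in 2 overlapping copies, and in RRN11 the copies are 3. RPA49 and RPC40 hold the full PAC with an RRPE core before it, as seen from the upstream end. RPA190 and RPA43 are neighbours that point away from each other with 804 bases between their start codons, so their windows do not overlap. Some core genes share their upstream region with another gene of ribosome production: RPC25 with LTV1 (299 bases apart), RPC53 with SAS10 (324) and RPC37 with DBP7 (397). A motif in such a shared region cannot be assigned to either gene from its position.

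**Figure D3:**
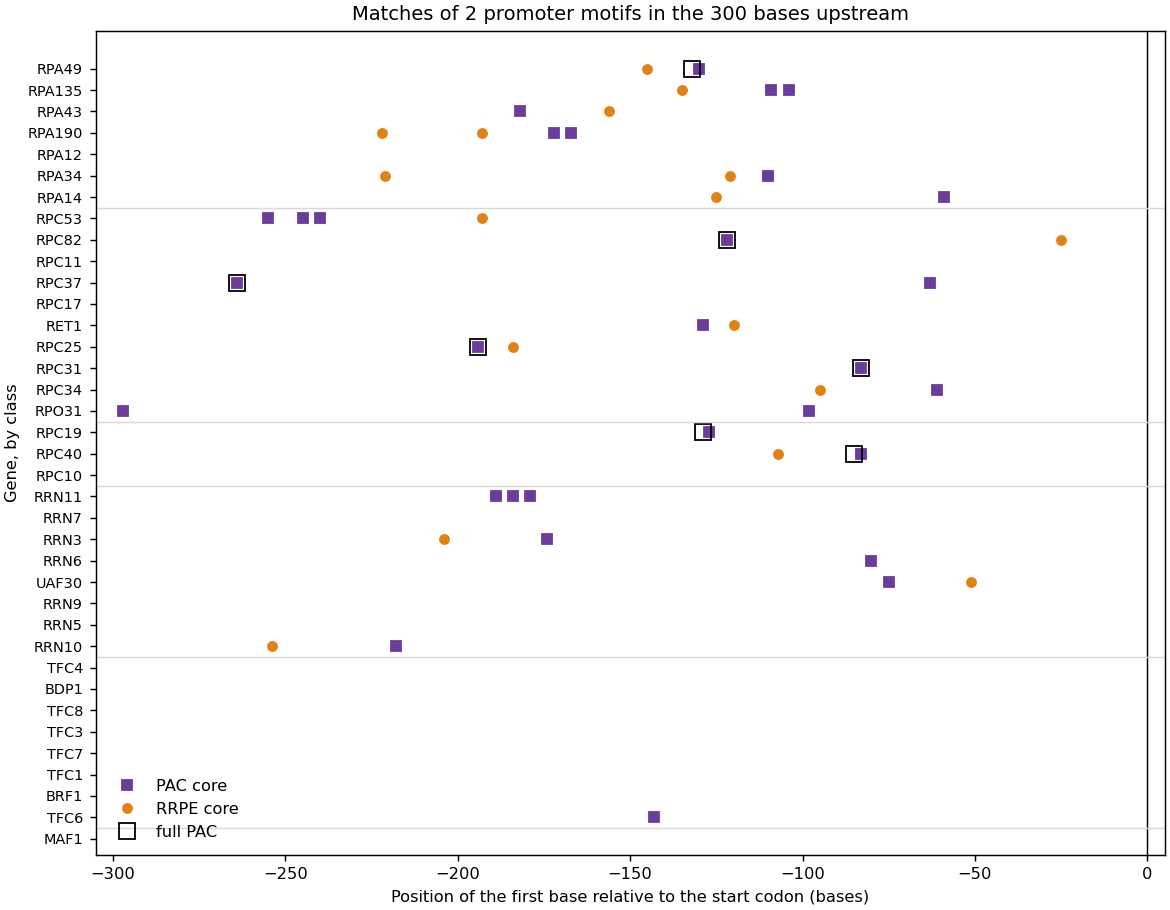
Position of the first base of each motif match relative to the start codon, for the 37 genes in the order of the range plot. Filled squares are the PAC core, open squares the full PAC at its own first base, and circles the RRPE core; matches lie between bases -297 and -25, and 7 of the 8 Pol III factors and MAF1 have none.

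The strains differed in most genes of the set at time point 3, where the mean of the core transcripts had dropped in both strains but by less in W89A. From time point 2 to 3 the W89A core mean, relative to the WT average, went from 1.47 to 0.02 in cycle 1 and 1.54 to 0.10 in cycle 2. In cycle 3 it went only from 1.30 to 1.02, and there RPO31 (199 to 200.001 CPM) and RET1 (171 to 173) did not drop. Of the 37 genes, 29 were called, 27 higher and 2 lower in W89A, in a comparison that called 51.1% of all genes tested (28.2% higher and 22.9% lower). Higher calls covered 19 of 20 core genes and 8 of 16 factors. Median fold changes were 2.02 for the Pol I core, 1.003 for the Pol III core, 1.44 for the shared core, 0.58 for the Pol I factors and -0.08 for the Pol III factors, beside 0.08 for all genes. In 25 of the 37 genes all W89A libraries were above all WT libraries and in 2 (TFC8 and MAF1) all were below, beside 32.5% and 27.3% of all genes. With library totals in place of TMM scaling, 24 genes were called higher and 6 lower. In that fit the median of all genes moved to -0.15, and its share of all genes called is not given here. The 3 W89A libraries were not alike: that of cycle 3 was the highest for 20 of 20 core genes. Without it, 26 genes were called beside 42.7% of all genes, and medians were 1.46 for the Pol I core, 0.53 for the Pol III core, 1.09 for the shared core and 0.55 for the Pol I factors.

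RPA135 had the largest fold change of the set. Its W89A libraries held 338, 398 and 776 CPM at time point 3, against 77.1, 117 and 85.1 in WT, a difference of 2.44 ± 0.29 (adjusted p = 2.81e-07), or 1.99 ± 0.25 without the W89A library of cycle 3. RPA190 held 248, 263 and 530.2 CPM, against 64.6, 105 and 62.5, a difference of 2.17 ± 0.26 (adjusted p = 4.52e-07). For both genes the W89A and WT libraries were well apart, the lowest of W89A lying above the highest of WT. The remaining Pol I core genes differed by 1.33 (RPA14) to 2.11 (RPA49), and all 7 kept their call without the library of cycle 3. RRN3 and RRN11 went the same way: RRN3 held 36.6, 38.8 and 66.8 CPM against 18.99, 27.8 and 21.4, a difference of 1.06 ± 0.18 (adjusted p = 2.41e-05), and RRN11 held 7.25, 6.197 and 21.8 against 2.73, 4.21 and 4.51, a difference of 1.62 ± 0.38 (adjusted p = 0.00102). The RRN11 value rests in large part on the W89A library of cycle 3, without which it was 0.82 ± 0.31. RRN7 (1.01), RRN5 (0.67), RRN6 (0.50) and RRN9 (0.41) were called too, RRN6 not without that library (adjusted p = 0.0853).

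Pol III core genes differed by less. RPO31 held 112, 132 and 200.001 CPM in W89A at time point 3, against 71.3, 77.8 and 76.00 in WT (0.98 ± 0.15, adjusted p = 7.78e-06), and RET1 held 94.2, 110.4 and 173 against 45.6, 65.1 and 58.9 (1.15 ± 0.17, adjusted p = 5.06e-06). No W89A library of either gene overlapped WT. The largest difference of the class was that of RPC37, 1.204 ± 0.19 (adjusted p = 1.28e-05), and RPC17 was the single core gene without a call, 0.46 ± 0.23 (adjusted p = 0.0919), with 11.1, 14.9 and 27.8 CPM against 14.1, 14.5 and 10.5. In all 7 counterpart pairs the difference was larger for the Pol I gene, by 0.79 (RPA34 over RPC53) to 1.29 (RPA135 over RET1), and, without the W89A library of cycle 3, by 0.58 (RPA49 over RPC37) to 1.18 (RPA14 over RPC17). Without the W89A library of cycle 3, 6 Pol III core genes moved by more than 1.5 times: RPC17 to 0.00 (adjusted p = 0.994), RPC53 to 0.38 (no longer called, adjusted p = 0.172), RPC11 to 0.39, RPC25 to 0.49, RPC82 to 0.50 and RPC31 to 0.56. RPC10, of the shared core, moved to 0.44.

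Only 3 of the 8 Pol III factors were called at time point 3. BDP1 was higher in W89A by 0.59 ± 0.12 (adjusted p = 0.000235) and TFC3 by 0.33 ± 0.11 (adjusted p = 0.0126), while TFC8 was lower, -0.45 ± 0.16 (adjusted p = 0.0237). TFC8 held 27.5, 20.6 and 24.3 CPM in W89A against 31.8, 34.8 and 32.2, and its call was lost without WT cycle 2 (-0.41, adjusted p = 0.0707), W89A cycle 2 (-0.35, 0.115) or W89A cycle 3 (-0.45, 0.0522), where the fold change was the same and the p-value alone crossed the threshold. TFC3 held 72.1, 66.7 and 51.8 CPM in W89A against 50.3, 55.8 and 45.2, and its call was lost without WT cycle 3, W89A cycle 1 or W89A cycle 2. BRF1 held 41.4, 46.96 and 42.8 CPM in W89A against 38.1, 50.6 and 46.8 in WT and the groups overlapped (-0.05 ± 0.13, adjusted p = 0.785). MAF1 held 87.6, 89.05 and 64.5 CPM against 102, 97.02 and 96.3, lower in W89A, -0.29 ± 0.12 (adjusted p = 0.0482); leaving out the W89A library of cycle 3 gave -0.16 ± 0.12 (adjusted p = 0.325), and leaving out any of the WT libraries ended the call as well.

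**Figure D4:**
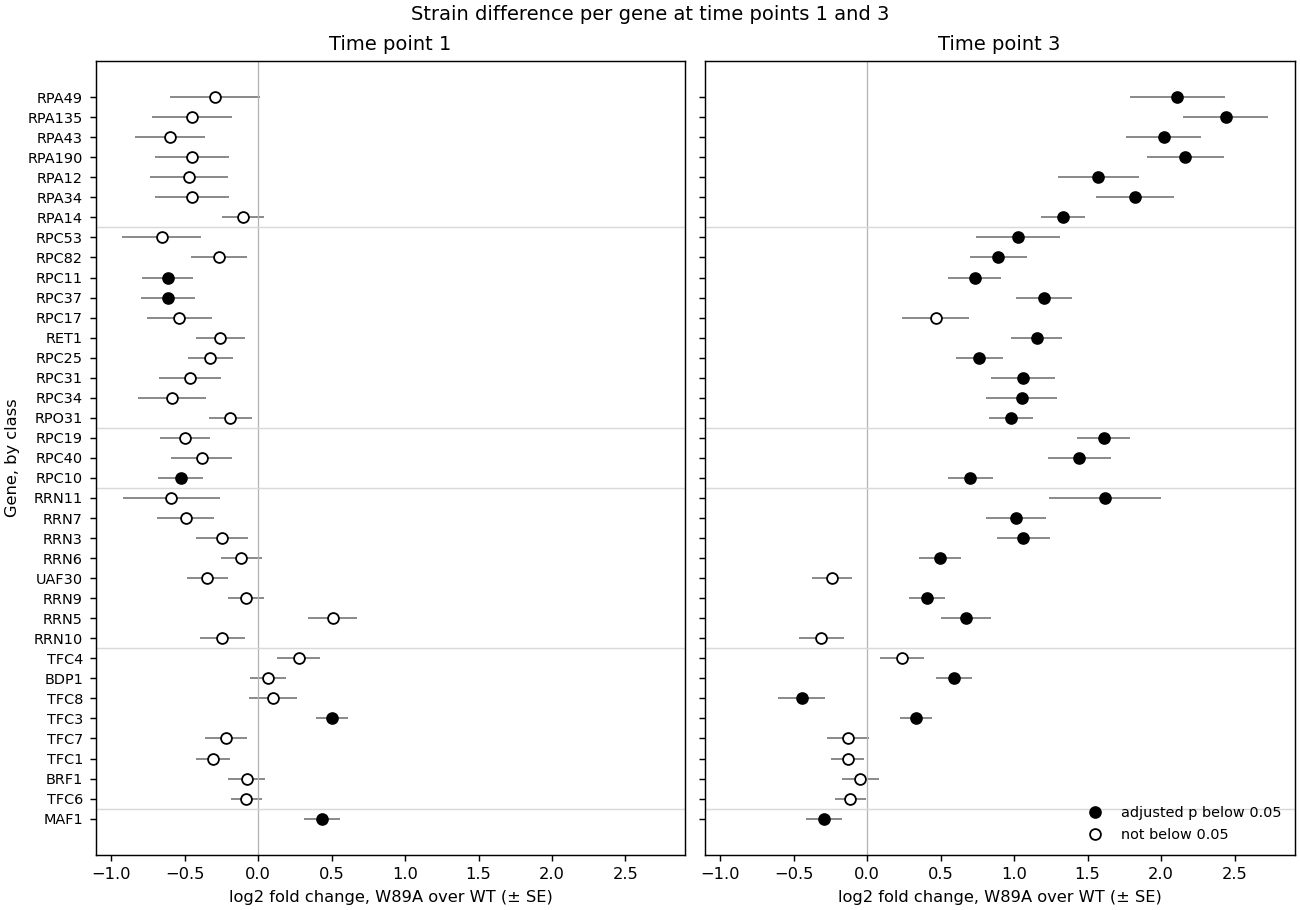
Log2 fold change of W89A over WT for each gene at time points 1 and 3, on a common horizontal scale, with bars of 1 SE; filled points have an adjusted p below 0.05 in the edgeR fit. At time point 3 the core genes run from 0.46 (RPC17) to 2.44 (RPA135), and at time point 1 from -0.66 (RPC53) to -0.10 (RPA14).

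As few genes of the set were called at time point 2, the difference at time point 3 was also tested as a difference in the step between those time points. In WT 30 of the 37 genes were called between time points 2 and 3, 27 of them lower, beside 61% of all genes (31.1% lower). In W89A 25 were called, 24 lower, beside 30.9% (16.6% lower). That count of 25 became 12 without all W89A libraries of cycle 1, 11 without those of cycle 2 and 16 with the title order. The shares of all genes called in those fits are not given here. The step was -3.22 in median for the Pol I core in WT and -1.15 in W89A, and -1.95 and -0.91 for the Pol III core. The test of the difference between steps called 23 of 37 genes, all with the smaller drop in W89A, beside 35.9% of all genes (19.1% in that direction). With library totals the split was 19 with the smaller and 3 with the larger drop, and the share of all genes is not given for that fit. The 23 genes were 19 of the 20 core genes and RRN3, RRN7, RRN9 and BDP1 of the 16 factors. Without the 3 libraries that stood apart the difference between steps was called for 20 genes, beside 33.3% of all, and the W89A step for 27, with medians of -1.65 for the Pol I core and -1.29 for the Pol III core. RPC17 again missed the threshold, with a difference of 0.68 ± 0.32 (adjusted p = 0.098), as did RRN11 with 1.23 ± 0.50 (adjusted p = 0.0602).

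At the following step the larger drop was that of W89A. From time point 3 to time point 4 the Pol I core medians were -3.14 in W89A and -0.76 in WT, those of the Pol III core -1.58 and -0.42. In W89A 26 of the 37 genes were called at this step, 25 lower, beside 58.7% of all genes (32.8% lower). RPA135 held 27.9, 26.7 and 66.02 CPM in W89A at time point 4, against 55.6, 57.8 and 47.9 in WT, and RPA190 held 30.1, 28.2 and 59.5 against 40.98, 48.9 and 46.9. The W89A library of cycle 3, the one closest to WT time point 3, was the highest of its group for both, and the other 2 were below every WT library. The difference between strains in this step was called for 23 genes (22 with the larger drop in W89A, and MAF1 in the other direction, 0.71 ± 0.17), beside 31.5% of all genes (17.3% with the larger drop, 14.2% in the other direction). It uses the same time point 3 libraries as the step before, and with the title order of the first-cycle W89A libraries 2 genes were called. Without the 3 libraries that stood apart 18 genes were called for this difference, beside 32% of all, and the W89A medians of the step were -2.97 for the Pol I core and -1.36 for the Pol III core. Over all 5 time points the test of strain by time point called 25 of 37 genes, beside 41.9% of all: all 20 core genes, RRN3, RRN7, RRN11, BDP1 and MAF1. Without those 3 libraries the count was 22, beside 40% of all.

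**Figure D5:**
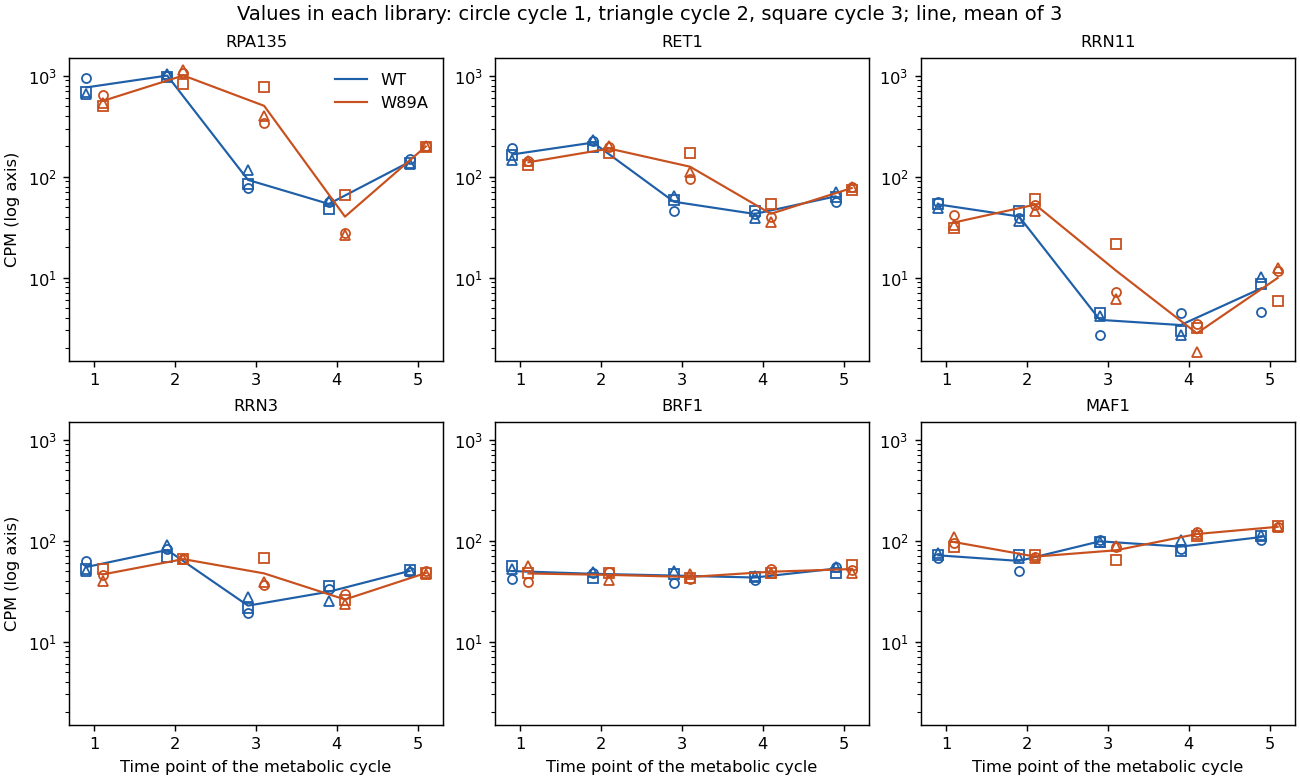
CPM in each library on a log axis against the time point for 2 core genes, 3 factors and MAF1; symbols mark the cycle and lines join the means of 3. The means of RPA135 and RET1 drop most between time points 2 and 3 in WT and between 3 and 4 in W89A, while BRF1 stays between 38.1 and 57.9 CPM in all 30 libraries.

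At time point 1 the core genes lay somewhat lower in W89A, with few calls. The median was -0.46 for the 20 core genes and -0.10 for the 16 factors, beside -0.01 for all genes, and in 21 of the 37 genes all W89A libraries were below all WT libraries, beside 19.1% of all genes. Called were 5 genes, 2 higher and 3 lower, beside 8.01% of all (4.41% higher and 3.6% lower): RPC37 (-0.62 ± 0.18, adjusted p = 0.0396), RPC11 (-0.61 ± 0.17, adjusted p = 0.0323) and RPC10 (-0.53 ± 0.15, adjusted p = 0.0354) were lower, and TFC3 (0.50 ± 0.11, adjusted p = 0.00954) and MAF1 (0.44 ± 0.12, adjusted p = 0.0323) were higher. RPC37 held 64.7, 58.2 and 61.1 CPM in W89A against 101, 93.1 and 88.3 in WT, and MAF1 held 95.1, 109 and 86.1 against 67.1, 75.3 and 72.4; neither gene's groups overlapped. In RPA135 the WT library of cycle 1, which stood apart, was the highest of 947, 668 and 690.4 CPM, and W89A held 652, 538 and 500.5. Leaving out a library changed the count of calls to 2 (WT cycle 3, W89A cycle 1 or W89A cycle 3) or to 0 (WT cycle 1 or W89A cycle 2), with 11 genes at an unadjusted p under 0.05 in both of the latter edgeR fits, against 16 with all libraries; DESeq2 on all libraries called 7, and with library totals 2 genes were called, both lower. Without the 3 libraries that stood apart 9 were called, beside 9.27% of all genes. Of the 37 genes, 16 passed at this time point in the authors' deposited table, 13 of them lower. The share of all genes that passed in that table is not given here.

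At time point 2, when the core genes peaked in both strains, 2 of the 37 genes were called, beside 13.1% of all genes (8.44% higher), and both were higher in W89A and encode TFIIIC subunits. TFC4 (chrVII:586392-589469, minus strand) held 35.5, 30.2 and 34.1 CPM in W89A against 15.2, 21.6 and 23.4 in WT (0.73 ± 0.15, adjusted p = 0.0024), and TFC3 (chrI:147594-151166, minus strand) held 47.9, 46.1 and 52.5 against 36.02, 35.7 and 32.9 (0.49 ± 0.11, adjusted p = 0.00513). Neither gene's groups overlapped and both calls held in every fit that left out a library. RPA135 stood at 1058, 1134 and 833 CPM in W89A against 990.1, 1055 and 975, and RPA190 at 622, 644 and 532 against 713, 779 and 673; in RPA135 the W89A values lay on both sides of the WT values, and in RPA190 all were below. The median of the 20 core genes was -0.16, and in 10 of the 37 genes all W89A libraries were below all WT libraries, beside 15.7% of all genes. Without the 3 libraries that stood apart 5 genes were called, beside 20% of all genes.

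Time points 4 and 5 gave 3 and 2 calls, beside 21.3% (10.9% higher and 10.5% lower) and 9.51% (5.07% higher and 4.44% lower) of all genes. At time point 4 TFC4 (0.51 ± 0.15, adjusted p = 0.0184) and MAF1 (0.41 ± 0.12, adjusted p = 0.0188) were higher in W89A and RRN10, a UAF gene, was lower (-0.45 ± 0.16, adjusted p = 0.0414). TFC4 held 30.6, 27.6 and 28.3 CPM in W89A against 22.1, 17.7 and 21.03 in WT. MAF1 held 121, 117 and 111 against 82.4, 101 and 79.02 and RRN10 held 14.1, 13.8 and 17.7 against 17.99, 20.8 and 23.4, with no overlap in any of the 3. At time point 5 TFC3 was higher (0.39 ± 0.11, adjusted p = 0.0273) and TFC1 lower (-0.39 ± 0.11, adjusted p = 0.0309). TFC3 held 68.3, 64.1 and 64.2 CPM in W89A against 46.9, 54.5 and 49.00, and TFC1 held 22.3, 22.8 and 19.01 against 24.3, 31.9 and 27.97, again without overlap. MAF1, at 137, 136 and 139 against 102, 114 and 111 CPM, did not overlap and was not called (adjusted p = 0.0796). At that time point 14 of the 37 genes had all W89A libraries above all WT libraries, beside 19% of all genes. The calls depend on single libraries. At time point 4 the count was 1 without WT cycle 2 or 3 and 0 without W89A cycle 1, where 7 genes had an unadjusted p under 0.05, as with all libraries; DESeq2 called 4. At time point 5 it was 1 without WT cycle 1 or 2 and 0 without WT cycle 3, W89A cycle 1 or W89A cycle 2, where 7, 5 and 6 genes had an unadjusted p under 0.05, against 8 with all libraries in edgeR; DESeq2 called 2. With the 3 libraries that stood apart left out, the counts were 11 and 9, beside 29.1% and 18.1% of all genes. With all libraries they were 3 and 2, beside 21.3% and 9.51%, so the counts and the share of all genes both rose.

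RPO31, RET1, RRN3 and BRF1 had no call at the remaining time points, which does not show that the strains are alike there. RPO31 in W89A held 154, 179.9 and 156 CPM at time point 1, 214, 229.8 and 199 at time point 2, 52.5, 48.2 and 67.02 at time point 4 and 97.4, 90.6 and 96.5 at time point 5. RET1 in W89A held 142, 144 and 131 CPM at time point 1, 197, 202 and 171 at time point 2, 39.5, 35.8 and 53.5 at time point 4 and 78.3, 79.5 and 73.8 at time point 5. In both genes the peak at time point 2 and the low at time point 4 were those of WT, while time point 3 stood above time point 5 in W89A and below it in WT. RRN3 in W89A held 46.2, 40.1 and 52.5 CPM at time point 1, 65.3, 66.6 and 65.2 at time point 2, 29.4, 23.4 and 25.6 at time point 4 and 49.6, 46.3 and 47.6 at time point 5. BRF1 in W89A held 38.9, 55.6 and 47.4 CPM at time point 1, 49.1, 41.03 and 47.4 at time point 2, 52.1, 47.7 and 48.03 at time point 4 and 51.6, 47.7 and 57.9 at time point 5, so its groups overlapped WT at time points 1, 2 and 5 and lay above it at time point 4. RPA190 at time point 1 held 394, 343 and 356 CPM in W89A, all below WT, and at time point 5 159.9, 146 and 146, all above WT, with adjusted p of 0.255 and 0.188. RPA135 at time point 5 held 200.4, 200.02 and 198, all above WT (adjusted p = 0.241). In the authors' deposited table RPA190 passed at both of these time points and RPA135 at time point 5. MAF1 in W89A held 68.6, 67.3 and 72.8 CPM at time point 2, which overlapped WT. Over the W89A cycle 30 of 37 genes were called, beside 75.5% of all, and all 20 core genes had their W89A peak at time point 2 (30.6% of all genes) and their low at time point 4 (36.8%). RRN10 (adjusted p = 0.0218) was called in W89A and not in WT, and RRN5, TFC1, TFC7, TFC8 and BDP1 were called in WT and not in W89A; of these genes BDP1 passed the test of strain by time point.

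Averaged over the 5 time points, 19 genes were called, beside 48.8% of all genes, 15 higher and 4 lower in W89A (27.1% and 21.7% of all). TFC3 (0.40 ± 0.05, adjusted p = 4.99e-07) and TFC4 (0.39 ± 0.07, adjusted p = 3.33e-05) of TFIIIC and RRN5 (0.36 ± 0.08, adjusted p = 0.000342) of UAF were higher, while RRN10 (-0.31 ± 0.07, adjusted p = 0.000622) and UAF30 (-0.27 ± 0.06, adjusted p = 0.00074), also of UAF, were lower. In UAF 1 of 4 genes was called higher and 2 lower, and in TFIIIC 2 of 6 higher (TFC3, TFC4) and 2 lower (TFC1, -0.18, and TFC7, -0.16). Lists of 4 and 6 genes are too short to set such shares against those of all genes. The count was 12 without all WT libraries of cycle 3 and 12 with the title order of the libraries.

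Core subunits and initiation factors were also set against each other within each library, as the mean log2 level of the 20 core genes minus that of the 16 factors, each gene relative to its WT average. In WT this difference was 0.87 ± 0.19 at time point 1, 1.30 ± 0.03 at time point 2, -0.62 ± 0.12 at time point 3, -1.11 ± 0.04 at time point 4 and -0.44 ± 0.08 at time point 5 (SD, n = 3). In W89A it was 0.52 ± 0.07, 1.11 ± 0.15, 0.35 ± 0.43, -1.34 ± 0.22 and -0.31 ± 0.08. At time point 3 the WT libraries stood at -0.72, -0.49 and -0.66 and the W89A libraries at 0.05, 0.16 and 0.84, without overlap. W89A minus WT was -0.35, -0.20, 0.97, -0.23 and 0.13 at time points 1 to 5. Without the W89A library of cycle 3 it was -0.11 at time point 2, 0.73 at time point 3 and -0.36 at time point 4. With the title order it reversed to 0.12 at time point 4 and -0.22 at time point 5, so no direction is given for those. Under that order neither of the exchanged libraries was closest to WT of its own time point. No p-value is given, since the genes were summed as a chosen list.

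Other genes of the transcription machinery and of ribosome production, from lists drawn up for this comparison, place these values. At time point 3, 28.2% of all genes were called higher and 22.9% lower. Without the W89A library of cycle 3, 42.7% were called in either direction. The 26 genes of the small subunit processome, which acts on the Pol I transcript, had a median WT range of 3.93 and a median difference at time point 3 of 1.81, with 26 of 26 called higher, beside 3.98 and 2.02 for the Pol I core. Without the W89A library of cycle 3, 24 of the 26 were called higher, with a median of 1.17 beside 1.46. RPB5, RPO26, RPB8 and RPB10, which encode subunits common to Pol I, Pol II and Pol III, had a median range of 2.42, and all 4 were higher in W89A at time point 3 (median 0.92, or 0.68 without that library). The 7 genes of Pol II alone had a median range of 0.46 and a median difference of 0.32 (0.28 without that library), with 4 called higher and RPB11 lower. Their window held the PAC core in 0 of 7 and that of the 4 common subunits in 0 of 4, while the processome genes held it in 23 of 26. Of 10 other genes of Pol I and Pol III transcription, 4 were called higher at time point 3 and 2 lower, which sets them little apart from all genes. Higher ones included FOB1 (1.24), which binds the replication fork barrier of the ribosomal DNA, and SPT15 (0.53), which encodes TBP. The lower ones were HMO1 (-0.44) and CKB1 (-0.23).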

How the data were processed

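The data are deposited gene counts of 30 libraries, whole numbers per feature, which the authors made from their reads. The submitters' processing notes name mm9, a mouse build, and the aligner, annotation and strand setting are not given in the sources used here; all 37 genes have R64 coordinates in the deposited table. The authors' deposited comparison tables also hold log2 fold changes and p-values per time point, which served, with their gene names, coordinates and lengths, for annotation, the time points of W89A cycle 1 and the counts credited to them.

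Genes of low count were removed with filterByExpr, which left 6256 of 7127. Libraries were scaled with TMM, and 1 mean per strain and time point was fitted with edgeR 4.0.16 (R 4.3.3) by its quasi-likelihood test with robust dispersions, over all 30 libraries (common biological coefficient of variation 0.164). P-values were adjusted by Benjamini-Hochberg over all genes tested, and every adjusted p in the text comes from that test unless another tool is named. Log2 CPM values used a prior count of 2. The code was checked on simulated counts, with 100 genes of each size of change placed in W89A at time point 3. Log2 changes of 0.5 and 1 were recovered there for 28% and 78.8% of genes. For the strain difference in the step from 2 to 3 the shares were 4% and 52.5%. For strain by time point they were 1% and 56.6%. Fewer genes were changed than were called in the data, so these shares are a guide only. A gene without a call may still have changed. DESeq2 1.42.0, other scalings, no filter, other library assignments, a replicate block and leaving out each library or each cycle of a strain were the alternatives. Members and lists were chosen with earlier results of these data known. Genes given per library were RPA190, RPA135, RPO31, RET1, RRN3, BRF1 and MAF1 and, per comparison, the called genes with the largest and the smallest change and those against the majority; others named individually, such as RRN11, were chosen after their values were seen. Within a strain the cycle number marks libraries of the same cycle, per the labels; deviations from the group means of such libraries correlated by 0.056 on average in WT and 0.038 in W89A. At 16540627 to 20260295 counts per library the lowest count of a member was 31 (RRN11).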

Additional observations from a re-analysis of the deposited data

Results flagged for a closer look

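The results listed here are those in which the strains differed in a change over time, by a test of that difference in edgeR. Strain by time point was called for 25 of the 37 genes, beside 41.9% of all genes. The step from time point 2 to time point 3 differed for 23 genes, beside 35.9% of all. That from time point 3 to time point 4 differed for 23, beside 31.5% of all, and both steps share the libraries of time point 3.

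As the W89A step minus the WT step between time points 2 and 3, on the log2 scale, the Pol I core gave 2.43 for RPA190, 2.44 for RPA135, 2.20 for RPA43, 2.07 for RPA49, 1.97 for RPA34, 1.68 for RPA12 and 1.12 for RPA14. The Pol III core gave 1.45 for RPC34, 1.35 for RET1, 1.32 for RPC31, 1.31 for RPC53, 1.15 for RPC37, 1.12 for RPC11, 1.06 for RPO31, 0.93 for RPC25 and 0.74 for RPC82. The shared core gave 1.76 for RPC19, 1.56 for RPC40 and 0.98 for RPC10. Among the factors the values were 1.36 for RRN3, 0.93 for RRN7, 0.47 for RRN9 and 0.62 for BDP1.

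The lowest value of the Pol I core thus equals one in the middle of the Pol III core. Without all W89A libraries of cycle 3, RPC53 (0.71), RPC82 (0.37), RRN9 and BDP1 lost their call. Of 9 refits, RRN9 lost its call in 7, RPC82 in 5, RPC53 in 4, and RRN7 and BDP1 in 2 each. In the fit without the W89A libraries of cycle 3, RPA12 (1.07), RPA49 (1.35), RPC11 (0.70), RPC25 (0.58) and RPC31 (0.79) moved by more than 1.5 times. The library of time point 3 in that cycle was the one most like WT time point 2, and its part in these values was not tested.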

How the results depend on the processing

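Counts of genes for the WT and W89A cycles, strain by time point and time point 3 stayed within 1.5 times under every alternative run. The same held for the strain difference in the step from time point 2 to 3. It did not hold for the W89A step from 2 to 3 or the strain difference in the step from 3 to 4. Nor did it hold for the average over time points or the smaller counts. With the title order, 1 gene was called at time point 1, 7 at time point 4 and 0 at time point 5 (5 at an unadjusted p under 0.05), and core minus factors reversed to 0.12 at time point 4 and -0.22 at time point 5. With both of those libraries left out, 0 were called at time points 4 and 5 (7 and 5 unadjusted). With library totals, 2 were called at time point 1 and 0 at time points 4 and 5 (6 and 8 unadjusted). Fits of the 6 libraries of a time point alone called 15 at time point 1, 0 at time point 4 (7 unadjusted) and 5 at time point 5. Leaving out the 3 libraries that stood apart, chosen after seeing the data, gave 9, 5, 11 and 9 at time points 1, 2, 4 and 5. The shares of all genes in that fit were 9.27%, 20%, 29.1% and 18.1%. For the other alternatives only counts of the set are given here, so they are not set beside all genes. The median over genes gave core minus factors of -0.50 at time point 1 and 0.23 at time point 5. The cause was not tested.

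Leaving out each library gave 0 to 4 calls at time point 1, 2 to 3 at time point 2, 26 to 29 at time point 3, 0 to 4 at time point 4 and 0 to 2 at time point 5. Leaving out all libraries of a cycle of 1 strain gave 31 to 34 for the WT cycle and 27 to 30 for the W89A cycle. Such removals gave 20 to 26 for strain by time point and 19 to 26 for the strain difference in the step from time point 2 to 3. For the W89A step from time point 2 to 3 they gave 11 to 27, and for the average over time points 12 to 19. With single libraries left out, core minus factors ran from -0.41 to -0.24, -0.26 to -0.11, 0.73 to 1.12, -0.36 to -0.16 and 0.09 to 0.17 at time points 1 to 5. With the cycle number as a replicate block the counts were 5, 2, 30, 3 and 2 at time points 1 to 5. That block gave 34 and 30 for the cycles and 25 for strain by time point. For the strain difference in the step from time point 2 to 3 it gave 24. It moved none of these counts by over 1.5 times. For single genes, 492 refits kept the call, 84 lost it and 0 reversed. The median log2 difference of all genes at time point 3 was 0.08 with TMM, 0.03 with DESeq2 size factors and -0.15 with library totals.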

Other observations

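The products of both polymerases are barely measured in these libraries. The 15 ribosomal RNA features held 0.0014% to 0.0034% of the counts of a library and the 225 transfer RNA features 0.0037% to 0.0085%, so the counts of the machinery cannot be set beside those of its transcripts.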
